A study of Arabidopsis thaliana with 12 samples.

Results

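Mutant lines of Arabidopsis thaliana for the catalytic subunits of NatA and NatB, the main N-terminal acetyltransferases, were compared directly, gene by gene, without passing through the wild type. The lines were amiNAA10, which carries an artificial microRNA against NAA10, and Atnaa20, a mutant of NAA20. The comparison took every gene that the deposited tables of both lines list, which were 33687 genes of the 33687 in the series, and 6 of its 12 samples. For each gene the mean normalized count of amiNAA10 was divided by that of Atnaa20. The log2 ratio was then centred on its median over the genes with a mean of 50 or more in both lines, so that positive values are higher in amiNAA10 and negative values higher in Atnaa20. No measured difference entered this choice of genes.

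Both lines are in the Col-0 background, the common wild-type accession, and received no treatment. Whole seedlings were grown on vertical plates, pooled and harvested when 10 days old, and poly(A) RNA was sequenced in 3 libraries per line, called biological replicates by the study. The promoter of the artificial microRNA and the allele of Atnaa20 are not given in the sources used here, and each line stands for its gene by a single genotype. The other groups of the series, Col-0 itself and the line Atdoa10a/b RNAi 4-2 (an Atdoa10a mutant that carries an RNAi construct against AtDOA10B), were grown to the same age and are given only as a background. Their table was normalized separately. The study relates this Col-0 to the RNAi line, and the Col-0 it relates to the acetyltransferase lines is in another series, which was not used. Values over Col-0 are therefore not over these lines' own control. Whether the libraries of Col-0 and the RNAi line were sequenced together with those of the acetyltransferase lines is not given in the sources used here.

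N-terminal acetylation is the transfer of an acetyl group from acetyl-CoA to the first amino group of a protein, mostly while the protein is still being made on the ribosome. NatA, formed by the catalytic subunit NAA10 and the ribosome anchor NAA15, acts on small residues that become exposed after the initiator methionine is removed. NatB, formed by NAA20 and NAA25, acts on initiator methionines that are followed by acidic or amide residues. In Arabidopsis both complexes have been linked to growth, development and stress responses.

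The means summed to 21625944 normalized counts in amiNAA10 and to 21639733 in Atnaa20. The whole-number counts of the 3 libraries could be read back from every mean of 50 to under 1000, which were 12559 means in amiNAA10 and 12663 in Atnaa20. The libraries are called A, B and C here, since the means do not show which library has which replicate number. The 4729 and 4422 means of 1000 or more could not be split, and for these only the ratio of the means is given, with a 95% interval that covers counting error alone. Over 11764 genes, the 6 pairs of libraries within a line had SDs of the log2 difference between 0.19 and 0.24. The 9 pairs between the lines had SDs between 0.44 and 0.51. Transcripts of the antenna and photosystem proteins reached 50 in both lines for 65 of 68 genes, and root hair transcripts for 15 of 18. Transcripts of seed storage and oil body proteins summed to 41.4, 509 and 9.59 normalized counts in amiNAA10 libraries A, B and C, and to 2.82, 8.02 and 11.1 in Atnaa20. Library B of amiNAA10 was thus apart from the others for this list, with 457 of its counts in CRA1, a cruciferin. In whole seedlings, fewer cells of a type and less RNA per cell cannot be told apart.

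The targeted genes were examined first. NAA10 (AT5G13780, chromosome 5, 4447259 to 4448675, minus strand, TAIR10.1) had 108, 125 and 135 normalized counts in the amiNAA10 libraries and a mean of 1318 in Atnaa20, beside 885 in Col-0. It was the lower transcript in the line that targets it, by 11.5-fold (log2 ratio -3.52, 95% counting interval -3.67 to -3.37). NAA20 (AT1G03150, chromosome 1, 756414 to 758678, plus strand) had 308, 345 and 345 normalized counts in amiNAA10 and 676, 692 and 672 in the libraries labelled Atnaa20, beside a mean of 263 in Col-0. All 3 libraries labelled Atnaa20 were above all 3 of amiNAA10, a log2 difference of -1.13 (SE 0.08, limma, adjusted p = 1.04e-08). The level of NAA20 mRNA was therefore higher, not lower, in the line named after this gene, and a gene-level count does not show whether the transcript is intact.

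The other subunits differed less. NAA15, the ribosome anchor of NatA, had means of 3532 in amiNAA10 and 2393 in Atnaa20 (log2 ratio 0.46, counting interval 0.42 to 0.51). HYPK, a partner of NatA, had 746, 639 and 809 normalized counts against 512, 521 and 536, with no overlap (log2 difference 0.38, SE 0.08, limma, adjusted p = 0.0012). NAA50, the catalytic subunit of NatE, was higher in amiNAA10 by 0.27 on the log2 scale (limma, adjusted p = 0.0083), a call that was lost without amiNAA10 library A. NAA25, the NatB partner of NAA20, was also higher in amiNAA10, by 0.27 (limma, adjusted p = 0.0014). The NatC subunits NAA30 (0.12, limma, adjusted p = 0.423) and NAA35 (0.14, limma, adjusted p = 0.123) did not pass the test. NAA60, a membrane-bound acetyltransferase, was lower in amiNAA10 by 0.27 (log2 difference -0.27, limma, adjusted p = 0.0201), a call that was lost without centring, without library A or C of amiNAA10 and without library C of Atnaa20. Of the 6 methionine aminopeptidases, which remove the initiator methionine before NatA acts, 4 could be tested. The cytosolic MAP1A and the organellar MAP1B were higher in amiNAA10 and the organellar MAP1C was higher in Atnaa20. Their log2 differences lay between -0.36 and 0.41.

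Of the 33687 genes, 8612 were listed at 0 in both lines, 16081 had under 50 in both, and 839 reached 50 in only 1 line. Of the 16767 genes with 50 or more in both, 285 (1.70%) were at least 2-fold higher in amiNAA10 and 302 (1.80%) at least 2-fold higher in Atnaa20. The same measure between Col-0 and the RNAi line gave 46 of 16840 genes (0.273%) in either direction. At least 4-fold apart were 19 genes higher in amiNAA10 and 37 higher in Atnaa20. The interquartile range of all log2 ratios ran from -0.21 to 0.24. Just inside the minimum of 50 was AT4G11880, with means of 61.7 in amiNAA10 and 50.002 in Atnaa20, and just past the 2-fold limit was RBP47C', at a log2 ratio of 1.00.

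Of the 15220 genes with library counts and a mean of at least 10 over both lines, 3302 (21.7%) were higher in amiNAA10 and 2826 (18.6%) were higher in Atnaa20 by limma at an adjusted p under 0.05. These shares are the background for each gene list below. The lists were chosen with earlier results of these data known, so their counts are a description and not separate support. All 420 genes that were at least 2-fold apart with 50 or more in both lines and could be tested were among the calls. Both counts come from the same libraries, so this overlap is not separate support. The split between the directions moved with the centring, since 53.9% of the calls were higher in amiNAA10 with it and 69.2% without it. Without amiNAA10 library B, 3195 and 2827 genes were called. These p-values compare pools of seedlings of single lines and weigh the difference between the lines against the spread between these libraries. With a single genotype per gene, an effect of the gene cannot be told apart from one of the line.

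**Figure D1:**
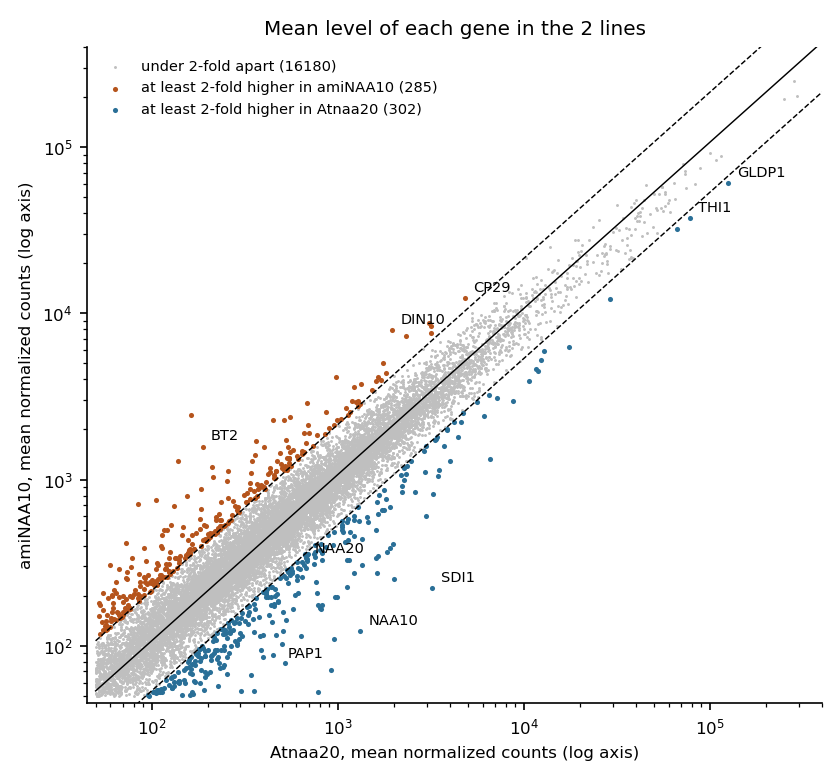
Mean normalized counts of 16767 genes in Atnaa20 (x, log axis) and amiNAA10 (y, log axis), with the centred line of equality (solid) and the 2-fold limits (dashed). The 285 genes above the upper limit reach up to a mean of 12282 in amiNAA10 (CP29). The 302 genes below the lower limit reach up to 125635 in Atnaa20 (GLDP1), and NAA10 and SDI1 are among the points farthest below that limit.

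The largest differences in the direction of amiNAA10 included regulatory and cell wall proteins. BT2, a BTB and TAZ domain protein, had a mean of 1579 in amiNAA10 and 189, 233 and 142 normalized counts in the Atnaa20 libraries (log2 ratio 2.97, counting interval 2.85 to 3.10). Its relative BT5 had 713, 652 and 891 against 92.2, 144 and 80.9, so that the lowest amiNAA10 library was above the highest of Atnaa20 (log2 difference 2.75, SE 0.16, limma, adjusted p = 3.4e-09). BZO2H3, a bZIP transcription factor, had 828, 860 and 948 against 190, 192 and 172. Its groups were far apart beside their narrow spread (log2 difference 2.15, SE 0.08, limma, adjusted p = 4.09e-11).

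Further large values in this direction were those of GDPD6 (2.75), a glycerophosphodiester phosphodiesterase, ACHT5 (2.54), a plastid thioredoxin, ATCTH (2.41), a CCCH zinc finger protein, PRP1 (2.43), a root hair cell wall protein, and EXT12 (2.24), an extensin. ASN1, an asparagine synthetase known as a gene induced in the dark, had means of 1121 and 256 (log2 ratio 2.03). CSD2, the plastid copper and zinc superoxide dismutase, had means of 2882 and 688 (log2 ratio 1.97). NEET, PP2-A13, CYP87A2 and EMB3120 had log2 differences of 1.94 to 2.01. CRA1 also had a large ratio, but its 15, 457 and 1 counts in amiNAA10 rested on library B. Its limma difference of 3.59 (adjusted p = 0.0261) fell to 1.5 (limma, adjusted p = 0.239) without that library, and the call was also lost without library A of either line and without Atnaa20 library C.

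In the direction of Atnaa20, SDI1, which represses glucosinolate synthesis when sulphur is short, had 158, 391 and 120 normalized counts in amiNAA10 and a mean of 3216 in Atnaa20 (log2 ratio -3.95, counting interval -4.06 to -3.84). BGLU28, a beta-glucosidase, had 21.1, 45.1 and 9.59 against 347, 327 and 394. Its groups did not overlap, although the amiNAA10 libraries differed among themselves (log2 difference -4.11, SE 0.33, limma, adjusted p = 8.54e-08). QQS, a gene known only from Arabidopsis that affects starch content, had 23.8, 45.1 and 24.9 against 183, 221 and 272 (log2 difference -2.95, limma, adjusted p = 3.48e-08). SAG29 (-3.92), a sugar transporter, NUDT24 (-3.72), a Nudix hydrolase, GPT2 (-3.57), a plastid glucose 6-phosphate translocator, LTP4 (-3.32), a lipid transfer protein, NOGC1 (-2.72) and AATP1 (-2.53) passed the same test. For SAG29, GPT2 and BGLU28, library B was the highest of the amiNAA10 libraries.

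Among the abundant transcripts, those higher in amiNAA10 included a chloroplast RNA-binding protein and enzymes of sugars and of the cell wall. CP29, a chloroplast RNA-binding protein, had means of 12282 and 4815 (log2 ratio 1.25). The beta-galactosidase BGAL1 had 8682 and 3098 (1.39), the beta-xylosidase BXL1 7274 and 2335 (1.54), and DIN10, a raffinose synthase family protein known as induced in the dark, 7895 and 1958 (1.91). SIP2 of the same family (1.16), the glutathione S-transferase GSTF2 (1.30), the ferric reductase FRO6 of leaves (1.41) and the peroxidase AT2G37130 (1.17) completed the 8 most abundant. For CP29, BGAL1, SIP2 and BXL1 the level in Atnaa20 was close to that in Col-0, with log2 ratios over Col-0 between -0.12 and 0.09, while amiNAA10 was at 1.23 to 1.41.

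The abundant genes higher in Atnaa20 included genes of photorespiration, starch and sulphate reduction. GLDP1, the P protein of glycine decarboxylase, had means of 60851 in amiNAA10 and 125635 in Atnaa20 (log2 ratio -1.14). THI1, which makes the thiazole of vitamin B1, had 37566 and 78216 (-1.16), and RBCS2B, a small subunit of Rubisco, 32279 and 66728 (-1.15). CT-BMY, a plastid beta-amylase, had 12265 and 29136 (-1.35), and GBSS1, the granule-bound starch synthase, 6276 and 17432 (-1.57). PPDK (-1.50), APR2 (-1.21) and AT1G75280 (-1.33), an isoflavone reductase-like gene, were the others. RBCS2B was below Col-0 in both lines, at log2 ratios of -1.54 and -0.39. These means could not be split into libraries, so no spread between replicates is known for them.

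Sulphur deficiency genes, which are induced when sulphate is scarce, were higher in Atnaa20 throughout. All 12 members with 50 or more in both lines had a ratio below 0, 9 of them at least 2-fold higher in Atnaa20, with a median log2 ratio of -1.47 beside 0 over all genes. Of the 5 that could be tested, 4 were called higher in Atnaa20. LSU3, a LOW SULPHUR protein, had 79.3, 116 and 41.2 normalized counts in amiNAA10 and 448, 512 and 606 in Atnaa20 (log2 difference -2.92, SE 0.24, limma, adjusted p = 9.35e-08). AT1G12030, of unknown function, had 51.1, 71.3 and 38.4 against 358, 390 and 318 (-2.84, SE 0.18, limma, adjusted p = 5.04e-09). In both genes library B was the highest and library C the lowest of amiNAA10, and no amiNAA10 library reached the Atnaa20 range.

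GGCT2;1, which degrades glutathione, had a log2 difference of -3.05 (limma, adjusted p = 1.21e-06), and LSU1, with means of 253 and 2015, a log2 ratio of -3.09. The 3 APS reductases APR1, APR2 and APR3, which reduce activated sulphate, had log2 ratios of -1.41, -1.21 and -1.43. Of the sulphate transporters, those in the list had smaller log2 ratios, from -0.43 for SULTR2;1 to -0.66 for SULTR1;2, and SULTR1;1 did not pass the test (limma, adjusted p = 0.168). Transporters outside the list were farther apart, with log2 ratios of -1.49 for SULTR3;1, -1.44 for SULTR1;3, -1.28 for SULTR4;2 and -1.05 for SULTR3;4. Against Col-0 the list had a median log2 ratio of -0.98 in amiNAA10 and 0.72 in Atnaa20, so that the lines lay on opposite sides of this Col-0, which is the control of the RNAi line. In Atdoa10a/b RNAi 4-2 the median was 0.17.

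The genes of anthocyanin synthesis were higher in Atnaa20. Anthocyanins are the red pigments that seedlings make late in the flavonoid pathway. Of the 11 members with 50 or more in both lines, 7 were at least 2-fold higher in Atnaa20 and none in amiNAA10, with a median of -2.25. Of 7 tested, 6 were called higher in Atnaa20. PAP1, the MYB factor that switches on the late steps, had 111, 121 and 97.8 normalized counts in amiNAA10 and 793, 806 and 1264 in Atnaa20 (log2 difference -3.17, SE 0.14, limma, adjusted p = 1.39e-10). GSTF12, which carries anthocyanins to the vacuole, had 152, 267 and 174 against 834, 806 and 1249 (-2.39, SE 0.17, limma, adjusted p = 2.29e-08). Both had their highest value in Atnaa20 library C, and in neither did the groups overlap.

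DFR and LDOX, the enzymes of the anthocyanin branch, had log2 ratios of -2.41 and -2.67. The glycosyltransferase UF3GT had a log2 difference of -2.43 (limma, adjusted p = 5.43e-07). TT8, the bHLH partner of the MYB factors, at -2.77, and the malonyltransferase AT5MAT, at -2.57, were not in the list and were among the largest differences of all genes. Of the steps shared with other flavonoids, F3'H, the flavonoid hydroxylase, was higher in Atnaa20, with 314, 291 and 329 normalized counts against 731, 666 and 833 (-1.35, limma, adjusted p = 8.01e-09). CHS, the entry enzyme, had means of 16848 and 15752 (log2 ratio -0.00) and FLS1, the flavonol synthase, a log2 ratio of 0.08. MYB12, which controls the flavonol steps, did not pass the test (-0.05, limma, adjusted p = 0.778). F3H was listed at 0 in all 4 lines and gives no value. The median over Col-0 was -0.82 in amiNAA10, 1.05 in Atnaa20 and -0.53 in Atdoa10a/b RNAi 4-2.

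**Figure D2:**
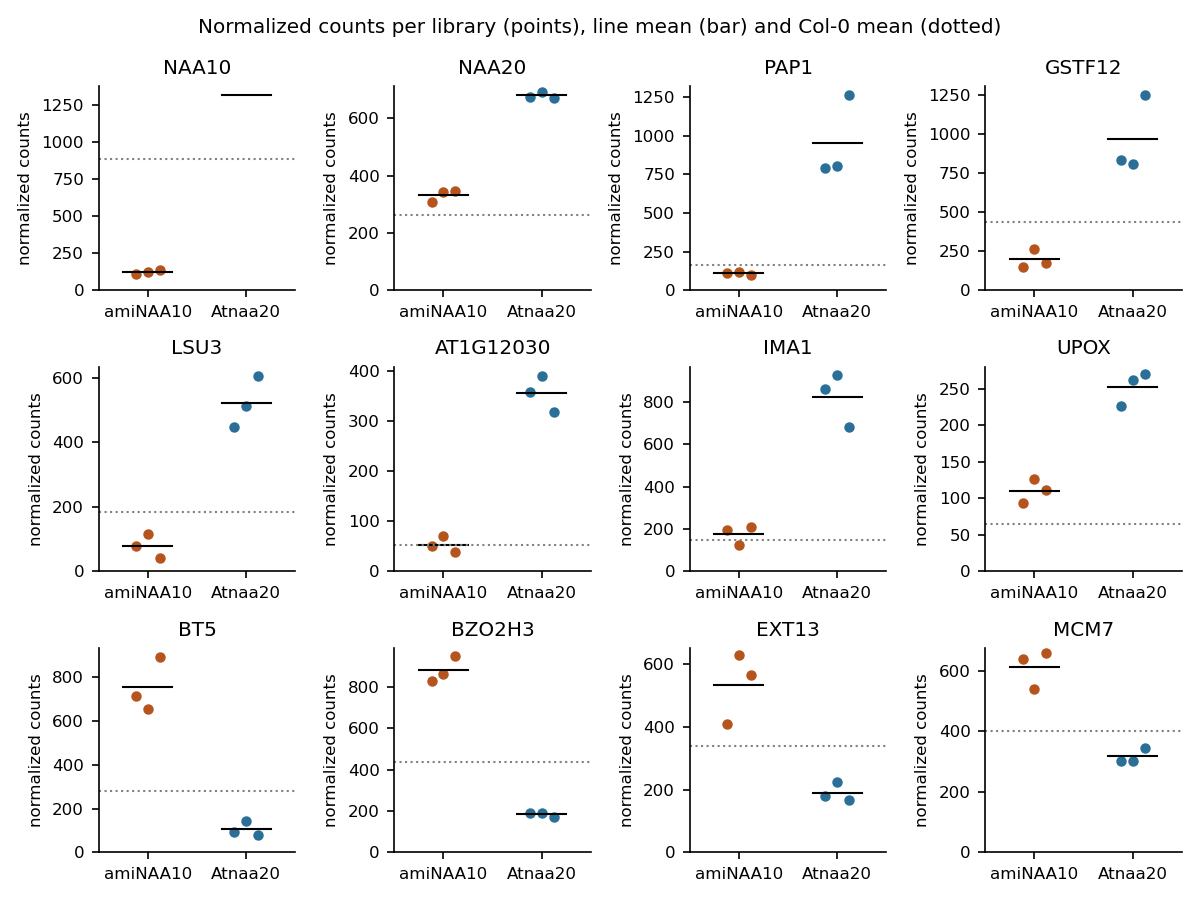
Normalized counts per library (points) of 12 genes in amiNAA10 and Atnaa20, with the line mean (bar) and the Col-0 mean (dotted line), y axes from 0. NAA10 has only its mean of 1318 in Atnaa20, and in the other 11 panels no library of one line lies within the range of the other.

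The list of iron deficiency genes went both ways. It holds signals of a shortage, uptake genes and ferritins, so its counts and median mix genes of unlike roles. Most bHLH factors and peptides that signal a shortage of iron were higher in Atnaa20, while the 3 ferritins, which store iron, were called higher in amiNAA10. Of the 18 members with 50 or more, 7 were at least 2-fold higher in Atnaa20 and 2 in amiNAA10. Of 9 tested, 4 and 5 were called in these directions. IMA1, a signalling peptide, had 197, 123 and 209 normalized counts in amiNAA10 and 861, 923 and 682 in Atnaa20 (log2 difference -2.34, SE 0.15, limma, adjusted p = 9e-09). The bHLH factors BHLH39, BHLH38 and BHLH100 had log2 ratios of -2.40, -2.39 and -1.71, and PYE a log2 difference of -1.30 (limma, adjusted p = 2.31e-07). IMA1 and IMA2, BHLH38 and BHLH39, and LSU1 and LSU3 are neighbouring copies that may share reads.

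FER4, a ferritin, had 617, 435 and 497 normalized counts in amiNAA10 against 117, 153 and 174 in Atnaa20, so that every amiNAA10 library was above the Atnaa20 range (log2 difference 1.70, SE 0.14, limma, adjusted p = 9.59e-08). FER1 (0.83) and FER3 (0.47) were called in the same direction. S8H, which makes the iron-binding coumarin fraxetin, had 194, 125 and 233 against 25.4, 28.1 and 10.1 (log2 difference 3.04, SE 0.31, limma, adjusted p = 8.13e-07). Of the uptake genes, the root ferric reductase FRO2 had means of 2678 and 1107 (counting interval of the log2 ratio 1.12 to 1.23) and the transporter IRT1 a log2 ratio of 0.24. FIT, the bHLH factor of root iron uptake, was called higher in amiNAA10 by a narrow margin (0.30, limma, adjusted p = 0.0427), a call that was lost without library A or C of amiNAA10 and without library A or B of Atnaa20. The list median over Col-0 was -0.02 in amiNAA10 and 0.64 in Atnaa20, with 0.79 in Atdoa10a/b RNAi 4-2.

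Genes of the mitochondrial dysfunction response, which plants induce when respiration is disturbed, were mostly higher in Atnaa20. Of 14 tested members, 11 were called higher in Atnaa20 and 1 in amiNAA10, and this count did not move when any library was left out. UPOX, a marker of mitochondrial oxidative stress, had 94.3, 126 and 111 normalized counts against 227, 263 and 270 (log2 difference -1.29, SE 0.13, limma, adjusted p = 8.17e-07). BCS1, an ATPase of the outer mitochondrial membrane, had 99.6, 135 and 123 against 293, 306 and 299 (-1.43, limma, adjusted p = 1.34e-07). Neither gene had overlapping groups. AOX1A, the alternative oxidase, had means of 1530 and 2755 (log2 ratio -0.95).

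NDB4, an alternative NADH dehydrogenase, was at 6.17, 7.22 and 6.71 in amiNAA10 and at 55.5, 53.1 and 53.6 in Atnaa20 (-2.94, limma, adjusted p = 5.62e-07). The MATE transporters AT2G04070 and AT2G04050 had log2 differences of -3.46 and -1.56, but their neighbour DTX1 was higher in amiNAA10, with 262, 249 and 362 against 145, 175 and 145 (0.79, limma, adjusted p = 0.00018). These 3 genes are near copies side by side on chromosome 2, so that reads could be counted for the wrong copy. NAC013, a transcription factor that acts on this response, had a log2 difference of -0.40 (limma, adjusted p = 0.00026). The list median was -0.92, and over Col-0 it was 0.16 in amiNAA10 and 0.96 in Atnaa20.

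NAC013 and its relatives bind a motif known as the mitochondrial dysfunction motif. It was searched as CTTGNNNNNCAAG or CTTGNNNNNCACG on both strands of the 500 bases before each annotated start (RefSeq, TAIR10.1). At least 1 match was found for 5 of the 20 list members (25%), and for 574 of 27443 promoters in all (2.09%). The matches of list members are shown with 8 bases on each side because the motif is named after this response. For the same reason, the share among list members is a description and not separate support. The capitals mark the arms of the motif, and all are read on the plus strand of the chromosome.
AT2G04050, chr2:1339604-1339632: gaaatataCTTGgggacCAAGttcgtata
AT2G04050, chr2:1339663-1339691: aaagattaCTTGggaatCAAGttctaata
CRF6, chr3:22804692-22804720: aaaagttgCTTGgagacCAAGctatagat
HSP23.5, chr5:20891045-20891073: ttattttaCTTGgagacCACGcagttcta
NDB3, chr4:11439612-11439640: tggtttgaCTTGacggcCACGgcaagagt
UPOX, chr2:9254319-9254347: tttagtaaCTTGctctcCAAGgagatcta

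The match nearest to a start was that of UPOX, at 38 bases, and the farthest that of CRF6, at 285. Of these genes AT2G04050, HSP23.5 and UPOX were called higher in Atnaa20. CRF6 had a log2 difference of 0.01 (limma, adjusted p = 0.965), and NDB3, with means of 3.69 and 4.59, was too low to be tested. Over all genes with 50 or more and a promoter, 260 of 16526 (1.57%) had a match, as had 13 of 299 (4.35%) of those at least 2-fold higher in Atnaa20 and 2 of 282 (0.709%) of those higher in amiNAA10. Among the 13 are AT2G04050 and UPOX of the list. A match is a run of letters and not a measured binding site.

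The lists of hormone and stress genes for jasmonate, abscisic acid, hypoxia and salicylic acid all had more calls in the direction of Atnaa20. Of 9 tested jasmonate and wound genes, 6 were called higher in Atnaa20 and 1 in amiNAA10. LOX2, AOS and OPR3, successive enzymes of jasmonate synthesis, had log2 values of -1.67, -1.14 and -0.76. For OPR3 the libraries were 564, 486 and 446 against 782, 794 and 784 (limma, adjusted p = 1.19e-06). CORI3, a cystine lyase induced by jasmonate, had means of 816 and 3252 (log2 ratio -2.09). VSP1, a vegetative storage protein, was called in the other direction (0.62, limma, adjusted p = 0.0121). This call was lost without library A of amiNAA10 and without library A or C of Atnaa20. VSP2 had 264, 632 and 237 normalized counts in amiNAA10 and 573, 555 and 630 in Atnaa20 (-0.88, limma, adjusted p = 0.0057). Library B of amiNAA10 was just above the Atnaa20 range before the centring of 1.07-fold and within it after. The other amiNAA10 libraries were below that range in both cases.

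Of 14 tested genes of the abscisic acid and drought response, 8 were called higher in Atnaa20 and 3 in amiNAA10, and the latter became 1 without amiNAA10 library A or without Atnaa20 library B. COR15A, a chloroplast protein of cold and drought, had 14.98, 10.8 and 14.4 normalized counts against 62.1, 53.1 and 108 (log2 difference -2.43, limma, adjusted p = 3.88e-06). HAI1, a phosphatase of abscisic acid signalling, had a log2 difference of -1.58 (limma, adjusted p = 0.00067) and HB7, a homeobox factor, means of 846 and 2222. KIN1 was higher in amiNAA10, with 195, 245 and 141 against 79.0, 91.2 and 81.9 (1.06, limma, adjusted p = 8.94e-05). RD29B, with 67.7, 32.1 and 178 in Atnaa20, was too scattered to pass the test (limma, adjusted p = 0.0614). The list median over Col-0 was -0.53 in amiNAA10 and 0.04 in Atnaa20.

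Of 14 core hypoxia genes, all tested, 6 were called higher in Atnaa20 and 1 in amiNAA10. PDC1, the pyruvate decarboxylase of fermentation, had a log2 difference of -1.04 (limma, adjusted p = 1.47e-06), and PCO2, a cysteine oxidase of oxygen sensing, was higher in amiNAA10 by 0.92 (limma, adjusted p = 0.0102), a call that was lost without amiNAA10 library A. Of 15 tested genes of salicylic acid and systemic resistance, 6 were called higher in Atnaa20 and 3 in amiNAA10, and the median of the members with 50 or more was 0.04. ALD1, which makes the precursor of pipecolic acid, stood out with 4.41, 0.902 and 2.88 normalized counts in amiNAA10 and 95.9, 95.2 and 93.0 in Atnaa20 (log2 difference -4.91, SE 0.37, limma, adjusted p = 4.04e-08). The synthesis gene ICS1 (0.23) and the transcription factor SARD1 (0.93) were called higher in amiNAA10. The 3 calls in that direction became 0 without library A of either line and 1 without amiNAA10 library C.

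**Figure D3:**
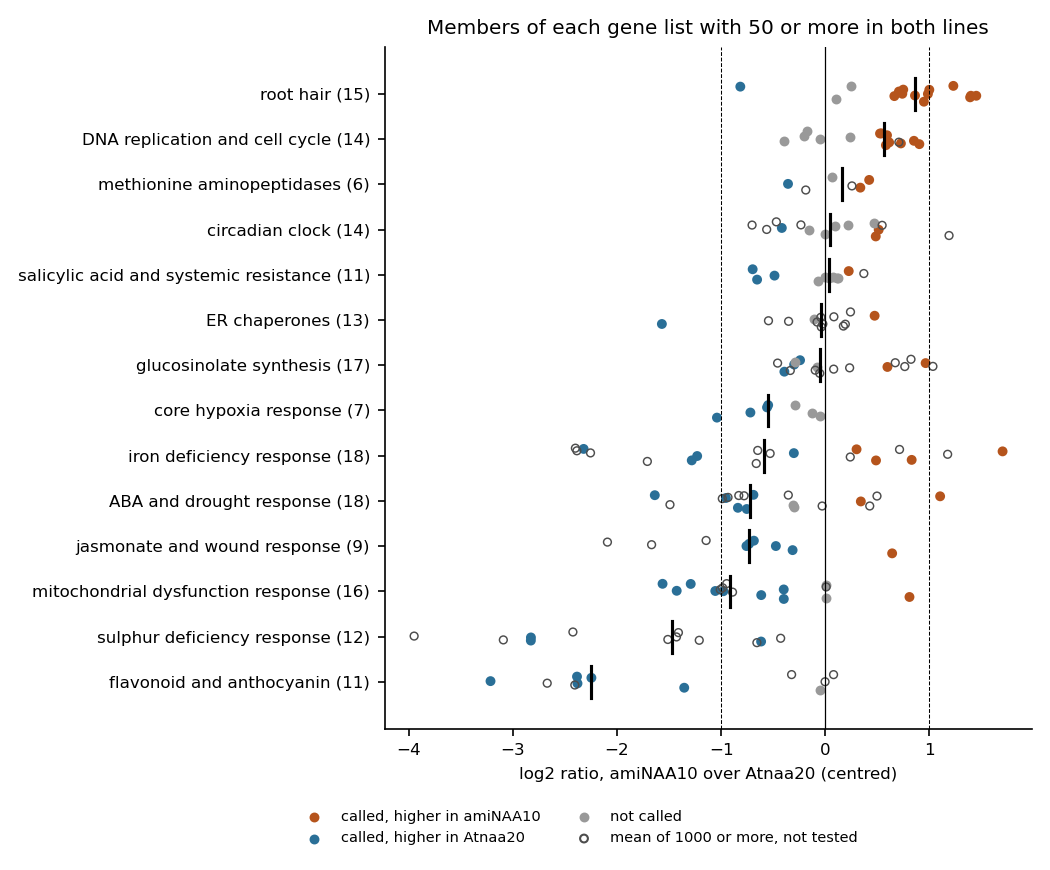
Centred log2 ratios of amiNAA10 over Atnaa20 for the members of 14 gene lists with 50 or more in both lines (points, coloured by the limma call, open where the mean could not be split), with list medians (bars) and 2-fold limits (dashed). The medians run from -2.25 for flavonoid and anthocyanin genes to 0.86 for root hair genes.

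Root hair genes were higher in amiNAA10. Of 18 members, all tested, 15 were called higher in amiNAA10 and 1 higher in Atnaa20, beside 21.7% and 18.6% of all tested genes, and the count did not move when any library was left out. The wall protein PRP1 had 146, 182 and 187 normalized counts in amiNAA10 and 24.5, 30.1 and 32.3 in Atnaa20 (log2 difference 2.43, SE 0.18, limma, adjusted p = 3.23e-08). EXT13, an extensin, had 411, 629 and 565 against 182, 224 and 166 (1.38, limma, adjusted p = 7.03e-07). The groups of both genes were well apart, and library A was the lowest of amiNAA10.

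RSL4, a bHLH factor that sets root hair length, had 47.6, 43.3 and 30.7 normalized counts against 16.9, 15.04 and 18.2 (1.12, limma, adjusted p = 0.0032). RHD6, the bHLH factor that starts hair formation, was the exception, with 59.0, 61.4 and 43.2 against 81.8, 111 and 75.8 (-0.80, limma, adjusted p = 0.0037). The expansin EXPA7 (1.23), the peroxidases PRX60 (1.42) and PRX73 (0.97) and the extensin-like RHS13 (1.41) were called higher in amiNAA10. RHD2, the NADPH oxidase of growing hairs, did not pass the test (0.11, limma, adjusted p = 0.374). Over Col-0, the list median was -0.28 in amiNAA10, -1.03 in Atnaa20 and -0.28 in Atdoa10a/b RNAi 4-2. The summed level of the 18 genes was 3555 to 4862 in the amiNAA10 libraries and 1893 to 2379 in those of Atnaa20.

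**Figure D4:**
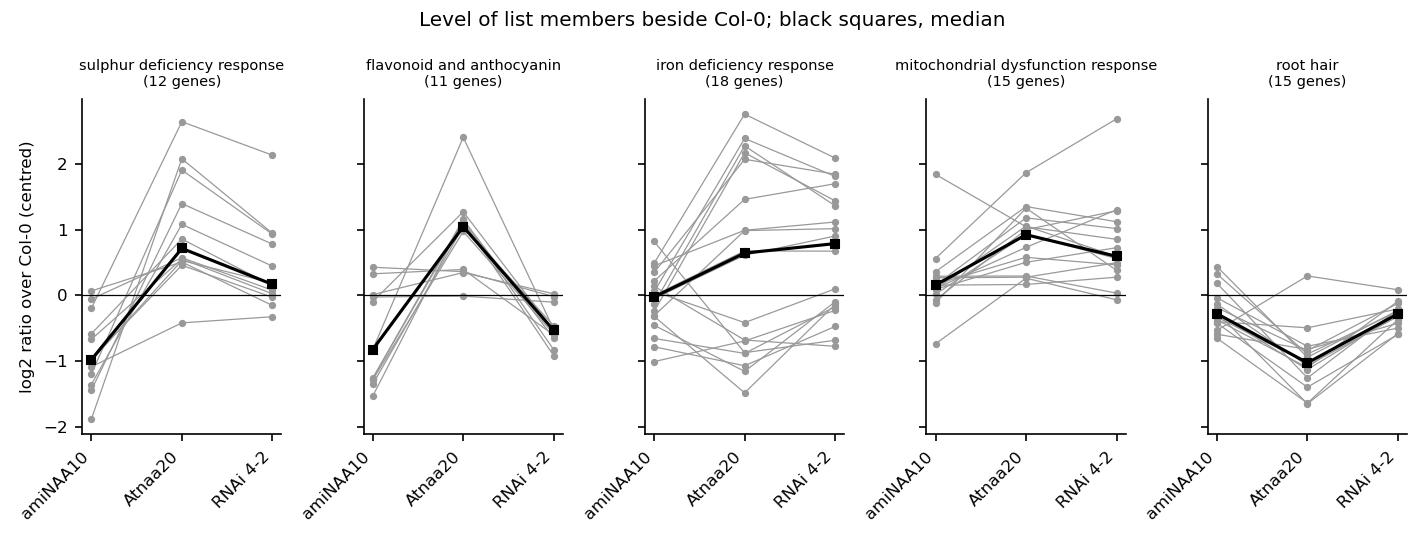
Centred log2 ratios over Col-0 (y) of the members of 5 lists in amiNAA10, Atnaa20 and Atdoa10a/b RNAi 4-2 (x), each gene a thin line and black squares the medians, over genes that also reach 50 in Col-0. The median of the sulphur list is -0.98 in amiNAA10 and 0.72 in Atnaa20, and that of the root hair list -0.28 and -1.03.

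DNA replication genes were also higher in amiNAA10, but mitotic genes were not called. Of 13 tested members, 8 were called higher in amiNAA10 and none in Atnaa20. MCM7, a subunit of the replicative helicase, had 640, 541 and 657 normalized counts against 303, 303 and 345 (log2 difference 0.85, SE 0.09, limma, adjusted p = 1.27e-06). All 6 tested helicase subunits, MCM2 to MCM7, had log2 differences between 0.54 and 0.90, and PCNA1, a sliding clamp, one of 0.74. The mitotic cyclin CYCB1;1 had 68.7, 57.8 and 43.2 against 72.4, 62.2 and 73.8, with overlapping groups (-0.41, limma, adjusted p = 0.11). The median over Col-0 was 0.24 in amiNAA10 and -0.41 in Atnaa20.

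Transcripts of the translation apparatus and of organelle RNA-binding proteins leaned the same way over many genes. Ribosomal proteins had a median log2 ratio of 0.44 over 301 genes, of which 251 were above 0, and 56 of 107 tested were called higher in amiNAA10 and 6 higher in Atnaa20. Pentatricopeptide repeat proteins, which process RNA in plastids and mitochondria, had a median of 0.25, and 92 of 226 were called higher in amiNAA10 and none in Atnaa20. The 92 became 67 to 78 when single libraries were left out, with 1 called in Atnaa20 without amiNAA10 library B. Extensins, structural wall proteins, had a median of 0.63, with 9 of 12 called higher in amiNAA10 and none in Atnaa20. Without centring, the medians of ribosomal and pentatricopeptide repeat genes were 0.54 and 0.35.

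In the opposite direction were families of transcription factors, namely NAC, WRKY and, with counts given below, bHLH factors. The proteasome leaned this way by its median. NAC factors had a median of -0.30, with 23 of 56 called higher in Atnaa20 and 6 in amiNAA10. WRKY factors had a median of -0.18, with 16 of 55 and 3 of 55 called in these directions, or 12 and 5 without centring. Subunits of the 26S proteasome had a median of -0.20 over 38 genes, 32 of them below 0, although only 8 could be tested and 2 were called higher in Atnaa20 and 1 in amiNAA10. Without centring these became 1 and 1, and the call in amiNAA10 was lost without its library C or without Atnaa20 library A. Antenna and photosystem genes had a median of -0.24 over 65 genes, but of 11 tested 6 were called higher in amiNAA10 and 3 in Atnaa20. They were below Col-0 in both lines, at medians of -0.60 in amiNAA10 and -0.31 in Atnaa20.

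The clock genes had a median of 0.05, with 2 of 9 called higher in amiNAA10 and 1 higher in Atnaa20. These counts became 0 and 0 without library A of amiNAA10 or library C of Atnaa20, 1 and 0 without library C of amiNAA10, 1 and 1 without library A of Atnaa20, and 4 and 0 without centring. They became 5 and 2 without amiNAA10 library B, in which ELF3, of the evening complex, had 631 normalized counts beside 1024 and 992 in the other libraries. RVE1, a clock-related MYB factor, had means of 1341 and 549 (log2 ratio 1.19). In glucosinolate synthesis, of 7 tested genes 2 were called higher in amiNAA10 and 3 in Atnaa20. The calls in Atnaa20 became 0 without library C of either line, 1 without amiNAA10 library A, without Atnaa20 library B or without centring, and 5 without amiNAA10 library B. The indolic enzymes CYP79B3 and CYP83B1 had log2 ratios of 1.04 and 0.82, the aliphatic enzymes CYP79F1 and CYP83A1 0.77 and -0.46, and MYB51, a regulator of the indolic branch, was higher in amiNAA10 (0.96, limma, adjusted p = 2.48e-05). The median of the list was -0.05 and turned above 0 without centring. ER chaperones had a median of -0.04, also above 0 without centring, and BIP3, which is induced by unfolded proteins, had 51.1, 42.4 and 115 against 232, 209 and 137 (log2 difference -1.66, limma, adjusted p = 0.00012).

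Of the tested cytochrome P450s, 43 of 131 were called higher in Atnaa20 and 24 in amiNAA10, and of the bHLH factors 27 and 11 of 79. For the SAUR proteins 17 of 50 were higher in amiNAA10 and 9 in Atnaa20, and for the AP2/ERF factors 15 of 60 in each direction. The class III peroxidases had 13 of 39 in amiNAA10 and 10 in Atnaa20, but 10 and 11 without library B and 9 and 10 without library C of amiNAA10. The histones had 9 of 28 in amiNAA10 and 4 in Atnaa20, and 15 and 2 without centring. The HSP70 family had 1 of 3 in each direction and the tubulins 2 of 2 in amiNAA10. Few members of these 2 families could be tested. Over the 13 HSP70 genes with 50 or more in both lines the median log2 ratio was 0.24, with 11 above 0 and 2 below. Over the 16 tubulins it was 0.11, with 11 above 0 and 5 below.

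The smaller counts of the other families depended on single libraries. Glutathione S-transferases had 6 of 20 called higher in Atnaa20 and 3 in amiNAA10, the latter becoming 1 without amiNAA10 library A. Lipid transfer proteins had 15 of 43 in Atnaa20 and 11 in amiNAA10, but 9 and 10 without Atnaa20 library A and 10 and 13 without centring. Small heat shock proteins had 9 of 28 in Atnaa20 and 5 in amiNAA10, but 7 and 3 without amiNAA10 library A and 6 and 7 without centring. Expansins had 6 of 17 in Atnaa20 and 5 in amiNAA10, but 3 and 5 without Atnaa20 library C, and 5 and 6 without amiNAA10 library B or without centring. Defensins had 5 of 10 in amiNAA10 and none in Atnaa20, and the 5 became 2 without amiNAA10 library A or Atnaa20 library C and 3 without amiNAA10 library C or Atnaa20 library B.

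Aminoacyl-tRNA synthetases had 5 of 16 called higher in Atnaa20 and 3 in amiNAA10. Their median log2 ratio leaned the other way, at 0.24 over the 45 genes with 50 or more in both lines, of which 31 were above 0 and 14 below. The calls in Atnaa20 became 2 without library A of either line or library B of Atnaa20, 3 without library C of either line, and 2 against 7 in amiNAA10 without centring. Late embryogenesis abundant proteins had 5 of 19 in amiNAA10 and 4 in Atnaa20, the latter becoming 2 without Atnaa20 library C or without centring. Aquaporins had 2 of 12 in each direction, and 1 in Atnaa20 without amiNAA10 library A or C or Atnaa20 library C. Of the transcripts of the organelle genomes that poly(A) libraries catch, 3 of 34 plastid genes were higher in amiNAA10 and 4 of 10 mitochondrial genes higher in Atnaa20.

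Since NatA and NatB act on different protein N-termini, the genes were also divided by the second codon of the protein. Of 9037 genes with 50 or more whose second residue is of the NatA type (Ala, Ser, Thr, Gly, Cys or Val), 1.76% were at least 2-fold higher in amiNAA10 and 1.87% in Atnaa20. Of 3728 genes of the NatB type (Asp, Glu, Asn or Gln), the shares were 1.56% and 1.88%. Over all 16526 protein-coding genes they were 1.71% and 1.81%. The shares called by limma were 22.5% and 19.3% for the NatA type, 20.8% and 17.4% for the NatB type, and 22.1% and 18.7% over all. The class medians lay between -0.01 and 0.02. The proline class, with 389 genes, had the lowest shares of genes at least 2-fold apart, from 5 and 2 genes.

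**Figure D5:**
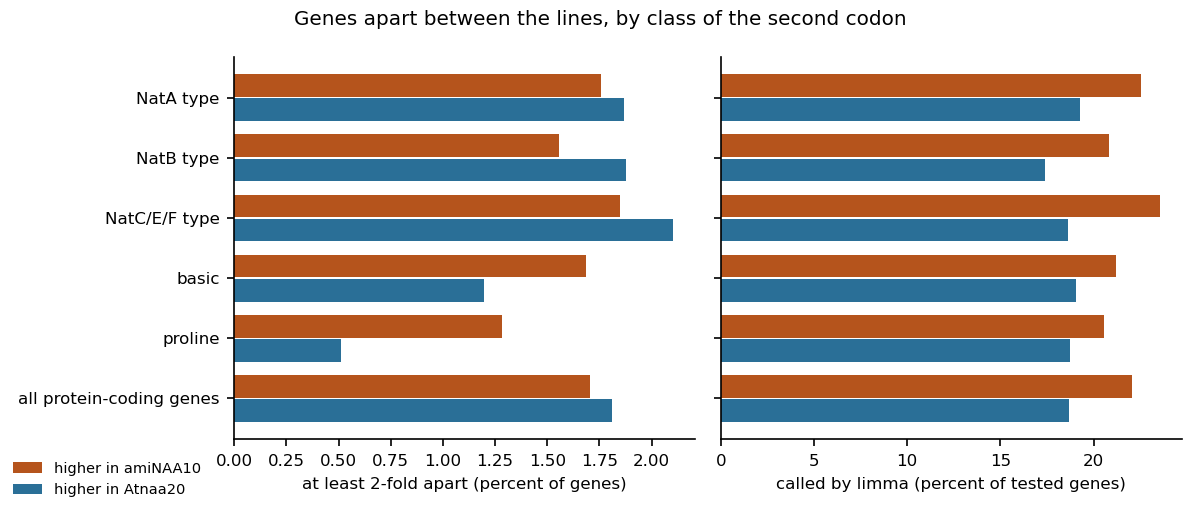
Percent of genes at least 2-fold apart (left, of genes with 50 or more in both lines) and percent called by limma (right, of tested genes), by the type of the second codon, with genes higher in amiNAA10 in orange and in Atnaa20 in blue, bars from 0. The NatA type (22.5% and 19.3% called) and the NatB type (20.8% and 17.4%) lie near the shares of all protein-coding genes.

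A further 7 genes, chosen after their values were seen, had a mean of at least 20 in 1 line and at most 1.5 in the other. The precursor of MIR319a (AT4G23713, chromosome 4, 12352956 to 12353131, plus strand) had 47, 30 and 51 counts in the amiNAA10 libraries and 0, 2 and 1 in those of Atnaa20, with a mean of 1.69 in Col-0 (log2 ratio 5.18, counting interval 3.63 to 7.51). The MIR319a precursor is a common backbone of artificial microRNAs in plants, and reads of such a transgene and of the endogenous gene cannot be told apart in a gene-level count. AT3G42090 and AT3G42110, close to each other on chromosome 3, had 0, 0 and 2 and 0, 0 and 0 counts in amiNAA10 against 62, 56 and 52 and 27, 23 and 32 in Atnaa20, and both were listed at 0 in Col-0.

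SADHU3-2, a retroposon, had 67, 27 and 37 counts in amiNAA10 and 2, 0 and 2 in Atnaa20, with a Col-0 mean of 39.1, near that of amiNAA10. AT2G05914 had 49, 34 and 36 counts against 0 in every Atnaa20 library, and AT5G44925 had 0 in every amiNAA10 library against 19, 20 and 25. The seventh was CRA1. Apart from CRA1, in which library B held nearly all counts, every library of the higher line had at least 19 counts and no library of the lower line more than 2.

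Set beside Col-0, most genes at least 2-fold apart had the wild-type level between those of the lines. This held for 211 of the 285 genes higher in amiNAA10 and for 245 of the 302 higher in Atnaa20. These genes were chosen for a wide gap between the lines, and this choice by itself favours a Col-0 level inside the gap. The share over all genes with 50 or more is not given here. Whether the lines responded in opposite directions from Col-0 was therefore not tested by these counts. Of the 285, 58 were at least 2-fold from Col-0 in amiNAA10, 90 in Atnaa20 and 15 in both. Of the 302, the corresponding numbers were 100, 91 and 17. Both lines were above Col-0 for 20 and 32 of these genes, and both below it for 54 and 25. The Col-0 values come from the separately normalized table, so a difference between the sets of libraries cannot be told apart from one between the lines and Col-0.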

How the data were processed

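Poly(A) RNA of pooled seedlings was sequenced in 3 libraries per line. According to the notes of the submitters, TopHat2 2.0.12 with Bowtie2 2.2.3, HTSeq 0.6.1 and DESeq 1.18.0 were used with TAIR10, but the study's methods name other tools, so the aligner is not settled. Whether reads were counted by strand is not given in the sources used here. The deposited values are signal: the authors scaled gene counts by a size factor per library and took the mean of the 3 libraries of a line. The authors' own fold changes, p-values and q were not used, nor were 2 Col-0 columns of another series, which the study relates to the acetyltransferase lines.

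Size factors (0.99 to 1.13) and whole counts per library were recovered from the means below 1000, for which 1 read is worth 0.305 (amiNAA10) and 0.328 (Atnaa20) normalized counts. The same search matched 7.50% and 5.85% of decoy means. Ratios were centred by 0.10 on the log2 scale (1.07-fold), because each table was normalized on its own. A gene with a mean of 50 rests on over 100 reads per line. Intervals are exact conditional binomial at 95% and cover counting error only.

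No test had been planned, since the tables hold means. The test with limma 3.58.1 (R 4.3.3) on log2(normalized count + 1) of the recovered libraries, with a trended prior and Benjamini-Hochberg adjustment over 15220 genes of mean 10 or more, was added after the files had been seen. It was tested on simulated data. Log2 differences are from limma on that scale and log2 ratios are of means. The members and gene lists were chosen with earlier results of these data known. Named were all acetyltransferase subunits, the 15 largest ratios in each direction with a symbol and a mean of 100 or more, the 8 most abundant genes at least 2-fold apart in each direction, and up to 4 members per list with the largest ratios. Genes named outside this rule were picked as examples with their values known. Names are RefSeq symbols or identifiers, and 32835 of 33687 genes had an entry. Python 3.11.15, numpy 2.4.6, pandas 2.3.3 and scipy 1.17.1 were used.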

Additional observations from a re-analysis of the deposited data

How the results depend on the processing

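Of the 63 named genes with a test, none changed direction under any centring, pseudocount, filter or left-out library. Without centring, or with the ratio of summed means as the centre, NAA60 lost its call and NAA35 gained one. Leaving out single libraries cost between 0 and 5 of these calls. Genes called higher in amiNAA10 numbered 2679 to 3195 and in Atnaa20 2363 to 2827 over these fits. A minimum of 10 in place of 50 gave 487 and 522 genes at least 2-fold apart. Of the 285 genes higher in amiNAA10 with the minimum of 50, 165 had a counting interval wholly past 2-fold. Genes called and at least 2-fold apart numbered 485 and 551, and 268 and 314 with a minimum mean of 50. Without centring 4559 and 2025 genes were called.

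List medians moved with the centre: without centring and with the ratio of sums they were 0.061 and 0.062 for ER chaperones, -0.14 for antenna and photosystem genes, 0.54 for ribosomal proteins, 0.35 for pentatricopeptide repeat proteins, -0.10 for small heat shock proteins, 0.26 for histones, 0.11 for AP2/ERF factors, -0.21 for NAC factors, 0.34 for aminoacyl-tRNA synthetases and 0.21 for tubulins, and with the ratio of sums 0.012 for lipid transfer proteins. A centre over means of 500 or more gave 0.14 for tubulins. A minimum of 10 gave 0.36 for pentatricopeptide repeat proteins, -0.38 for NAC factors and -0.40 for the mitochondrial genome, and a minimum of 100 gave 0.39 for extensins and -0.12 for SAUR proteins. The proline class had 8 genes at least 2-fold higher in amiNAA10 without centring or with the ratio of sums, and 1 higher in Atnaa20 there and with a centre over 500. Medians that changed sign with the centre were those of the ER chaperones, glucosinolate genes, cytochrome P450s and lipid transfer proteins, and with the minimum those of the SAUR proteins, AP2/ERF factors and plastid genes. Another centre shifts every ratio by the same amount, and the cause of the other moves was not tested.

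No paired analysis was possible because the recovered libraries carry no replicate number. Genes with means of 1000 or more have no spread between replicates here, and their intervals cover counting error only.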
